A study of Mus musculus with 3 samples.

Results

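Extracellular ATP is a danger signal that is broken down to adenosine, a suppressor of T cells, and 10 genes of that pathway were described in activated regulatory T cells (Treg) of the mouse. They were chosen by symbol, with earlier results of these data known, and matched by GENCODE M21 identifier. They are 10 of the 55536 mouse genes in the data. They are Entpd1, Nt5e, Adora2a, Adora2b, Ada, Adk, Slc29a1, P2rx7, P2rx4 and Art2b. Polyadenylated RNA of primary Treg, labelled activated, male and 3 weeks of age, was sequenced in 3 libraries, which the labels number as technical replicates of 1 biological replicate with 1 donor entry. They are called library 1, library 2 and library 3 after those numbers. The labels give no strain, no way of activation, no purity of the cells and no step at which the libraries parted. With 1 group there was no comparison of conditions. Values after ± are the SD over the 3 technical libraries, and p-values compare libraries, not animals.

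ATP leaves stressed or activated cells through channels and damaged membranes, and opens P2X channels on T cells. The surface enzymes CD39 (Entpd1) and CD73 (Nt5e) turn it first into AMP and then into adenosine, which acts through receptors that raise cyclic AMP in T cells, and both enzymes are textbook surface proteins of mouse Treg. Adenosine is then carried into the cell by transporters and removed by deamination or phosphorylation, and the enzyme encoded by Art2b uses extracellular NAD to modify and open P2RX7 in mouse T cells.

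Gene reads numbered 30362256, 28419259 and 31959927 in libraries 1, 2 and 3. All 6 Treg markers listed (Foxp3, Il2ra, Ctla4, Ikzf2, Cd4 and Cd3e) were detected, with a summed level of 2228, 2229 and 1943 TPM, where TPM is the transcript level scaled for length and library total. Of 5 markers each, 4 B cell markers were detected at a sum of 40.2 to 67.7 TPM, 3 monocyte and macrophage markers at 44.0 to 99.7 TPM, and 4 CD8 and NK cell markers at 23.3 to 35.9 TPM, with Ncr1 at 0 reads. No dendritic cell marker (sum 3.08 to 6.70 TPM) and no neutrophil marker (0.69 to 9.81 TPM, Elane at 0 reads) was detected in all libraries. Among platelet markers 1 of 5 was detected (4.30 to 6.97 TPM), and among endothelial and stromal markers only Pecam1 was, which made up most of a sum of 73.3 to 88.1 TPM. Erythroid markers stood apart, with 5 of 5 detected and a sum of 8528 TPM in library 1 against 686 and 503 TPM in libraries 2 and 3. Any of these cells may add RNA of the pathway genes, and their part in the levels below was not tested. In bulk RNA, fewer cells of a type and less RNA per cell cannot be told apart.

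Of the 10 genes, 9 were detected at 1 TPM or more in every library, against 48.1% of 22028 protein-coding genes. The exception was Adora2b. The median level of the 10 genes was 34.9 TPM, against 30.1 TPM over the 10601 detected protein-coding genes and 1.17 TPM over all protein-coding genes. In falling order of mean level, Adk, P2rx7, Nt5e and Slc29a1 lay between 84.4 and 108.2 TPM, and no step between neighbours among them exceeded the spread of their ratio. Entpd1 followed at 39.3 TPM, below Slc29a1 and above P2rx4 beyond that spread. P2rx4, Adora2a, Art2b and Ada came next, and no step between neighbours in that run exceeded the spread. Adora2b was last, below Ada beyond the spread. A ratio was called beyond the spread where log2 of TPM + 1 differed in 1 direction in all 3 libraries and the mean difference exceeded 2 SD.

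**Figure D1:**
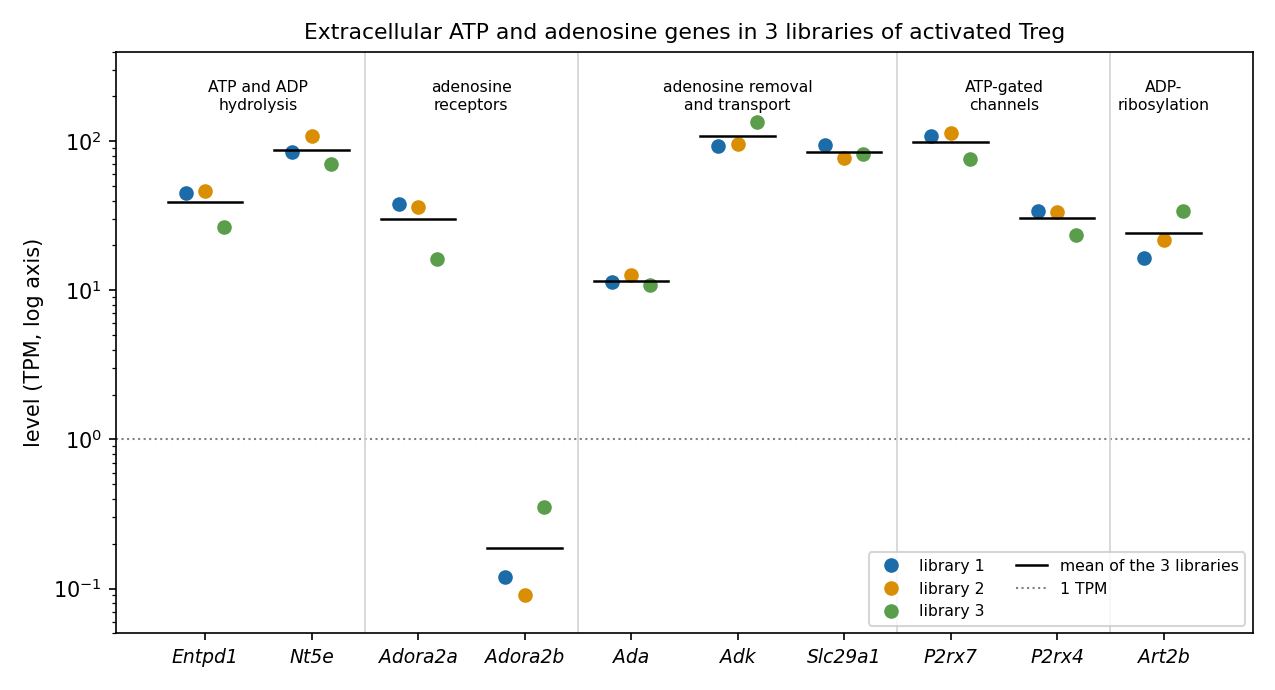
Level of each gene in TPM on a log axis, with 1 point per library, a bar for the mean of the 3 libraries and a dotted line at 1 TPM. All genes but Adora2b lie above 10 TPM in every library, and Adora2b lies below 1 TPM in every library.

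The surface enzymes that make adenosine were both expressed, Nt5e more than Entpd1. Entpd1, which encodes the enzyme that cuts ATP and ADP to AMP (ENSMUSG00000048120.16, chr19:40612366-40741602, plus strand, mm10), stood at 45.2, 46.1 and 26.6 TPM in libraries 1, 2 and 3. Libraries 1 and 2 were close and library 3 was low. Nt5e, which encodes the enzyme that cuts AMP to adenosine (ENSMUSG00000032420.8, chr9:88327197-88372092, plus strand), stood at 84.3, 107.8 and 70.6 TPM. Library 2 was the highest and library 3 again the lowest. The means were 39.3 ± 11.0 TPM for Entpd1 and 87.5 ± 18.8 TPM for Nt5e, and 79.9% and 90.3% of protein-coding genes had a lower mean. Entpd1 was below Nt5e in every library, by a mean log2 ratio of -1.15 ± 0.25.

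Entpd1 was read as transcripts with different first coding exons, and these carry different first residues of the enzyme. The coding part of each first exon, read from the GENCODE M21 transcripts on mm10 (plus strand, start codon in capitals), is shown because the estimated level was split about evenly between them.
Entpd1-204, chr19:40612421-40612523: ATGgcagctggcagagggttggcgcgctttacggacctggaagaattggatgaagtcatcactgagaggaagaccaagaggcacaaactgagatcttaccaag
Entpd1-201, chr19:40659885-40659900: ATGgaagatataaagg
Entpd1-204 codes for 539 residues and Entpd1-201 for 510. Of the TPM of protein-coding Entpd1 transcripts with an annotated start codon, the upstream start of Entpd1-204 took 51.4%, 57.1% and 51.2% in libraries 1, 2 and 3, and the downstream start of Entpd1-201 took 48.6%, 42.9% and 45.2%. Entpd1-202, a coding transcript without an annotated start, had TPM in library 3 alone, and with it counted the shares there were 49.1% and 43.3%. The upstream share was higher in every library, but the intervals that the authors deposited for the transcript levels overlapped in library 1 (11.6 to 16.7 TPM for Entpd1-204 and 12.5 to 15.0 TPM for Entpd1-201) and in library 3 (7.37 to 10.8 and 7.78 to 9.54 TPM), and lay apart in library 2 only. Of the whole gene, Entpd1-204 made up 37.9 ± 2.73%, Entpd1-201 32.4 ± 2.62% and the noncoding Entpd1-206 and Entpd1-208 13.1 ± 2.74% and 10.9 ± 2.12%. By reads not divided by length, Entpd1-201 led with 56.3 ± 2.98% against 37.3 ± 2.55% for Entpd1-204, and the noncoding Entpd1-206 and Entpd1-208 took 3.16% and 0.71%, from means of 58.2 and 13 reads. Nt5e came mainly from 1 transcript, Nt5e-201, with 89.9 ± 1.57% of its TPM.

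Of the adenosine receptor genes, Adora2a carried nearly all of the measured level. Adora2a encodes the high-affinity receptor that raises cyclic AMP (ENSMUSG00000020178.6, chr10:75316877-75334784, plus strand), and it stood at 37.7, 36.4 and 16.3 TPM, a mean of 30.1 ± 11.998 TPM. Library 3 held less than either other library. Adora2b encodes the low-affinity receptor of the same kind (ENSMUSG00000018500.2, chr11:62248984-62266453, plus strand), and it stood at 0.12, 0.09 and 0.35 TPM from 4, 3 and 14 reads. In libraries 1 and 2 these counts are near the 3 reads that a count of 0 would still allow, a limit that covers counting error only, and library 3 held more. Adora2a exceeded Adora2b in every library by a mean log2 ratio of 4.63 ± 0.82 on the TPM + 1 scale, which understates the gap for a gene this low. The remaining receptors of the family, Adora3 at 0.86 ± 0.34 TPM and Adora1 at 0.027 ± 0.046 TPM, were not detected in all libraries. Adora2a-201 made up 97.6 ± 2.84% of the Adora2a level.

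Transcript levels of the genes of adenosine removal were uneven, with the kinase and the transporter above the deaminase. Ada, adenosine deaminase (ENSMUSG00000017697.3, chr2:163726584-163750239, minus strand), stood at 11.4, 12.7 and 10.8 TPM, a mean of 11.6 ± 0.956 TPM. The libraries lay close together. Adk, the adenosine kinase that turns adenosine back into AMP inside the cell (ENSMUSG00000039197.10, chr14:21052574-21448569, plus strand), stood at 92.8, 96.5 and 135.4 TPM, a mean of 108.2 ± 23.6 TPM. Libraries 1 and 2 were close and library 3 was high, the reverse of Entpd1 and Adora2a. Adk exceeded Ada in every library by a mean log2 ratio of 3.10 ± 0.38.

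Slc29a1 encodes the equilibrative nucleoside transporter that carries adenosine across the plasma membrane (ENSMUSG00000023942.15, chr17:45585200-45599606, minus strand). It stood at 94.1, 77.4 and 81.8 TPM, a mean of 84.4 ± 8.69 TPM, with library 1 the highest and library 2 the lowest. Red blood cells also carry this transporter, and the erythroid markers summed to 8528 TPM in library 1, against 686 and 503 TPM in libraries 2 and 3; their part in its level was not tested. Slc29a1 exceeded Ada by a mean log2 ratio of 2.76 ± 0.22, and Nt5e exceeded Ada by 2.79 ± 0.20, each in every library. Slc29a1-202 made up 61.9 ± 4.70% of the gene and Slc29a1-203 21.7 ± 5.43%. These transcripts start with different exons, and 99.1 ± 0.875% of the coding TPM of Slc29a1 shared 1 start codon. The single Ada transcript that codes for the enzyme, Ada-201, made up 97.5 ± 2.24% of that gene.

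Adk, like Entpd1, has alternative first coding exons, and these separate the known forms of the enzyme. The long form is known to be nuclear and the short form cytoplasmic. The coding part of each first exon is given below from the GENCODE M21 transcripts (plus strand, start codon in capitals), followed by the 250 bases before each start in RefSeq, build GRCm38.p6, with CpG dinucleotides in capitals. The promoters are shown because the coding transcripts used the start codons unequally in every library.
Adk-207, short form, chr14:21076308-21076321: ATGacgtccaccag
Adk-201, long form, chr14:21052639-21052700: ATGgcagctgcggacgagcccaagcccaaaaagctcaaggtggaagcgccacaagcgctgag
Before the short form, chr14:21075902-21076151: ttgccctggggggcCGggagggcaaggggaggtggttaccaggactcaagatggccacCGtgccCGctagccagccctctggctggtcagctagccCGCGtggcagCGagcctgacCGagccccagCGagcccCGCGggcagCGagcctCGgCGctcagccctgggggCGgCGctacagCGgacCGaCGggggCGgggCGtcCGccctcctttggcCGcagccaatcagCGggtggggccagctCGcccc
Before the long form, chr14:21052324-21052573: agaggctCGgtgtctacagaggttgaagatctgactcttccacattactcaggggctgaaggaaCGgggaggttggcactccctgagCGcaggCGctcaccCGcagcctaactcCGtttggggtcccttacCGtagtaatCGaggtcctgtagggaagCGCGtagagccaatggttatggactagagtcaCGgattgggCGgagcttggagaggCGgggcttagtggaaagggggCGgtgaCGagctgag
The short form codes for 345 residues and the long form for 361. Of the TPM of coding Adk transcripts with an annotated start codon, the short form took 76.3%, 78.9% and 62.4% in libraries 1, 2 and 3, and the long form took 23.7%, 21.1% and 37.6%. Over all coding transcripts the short form took 73.5%, 78.2% and 61.6%. The short form thus led in every library, and its share was lowest in library 3, the library with the most Adk. The long form stood at 15.7, 13.5 and 39.9 TPM, but the intervals that the authors deposited were wide, at 5.38 to 22.2, 6.09 to 22.9 and 16.8 to 48.0 TPM, so that library 3 overlapped the others. Those of the short form were 38.4 to 55.7, 35.3 to 52.7 and 50.8 to 81.5 TPM and lay above those of the long form in each library. A short noncoding transcript, Adk-202, took 16.7 ± 3.50% of the gene, Adk-207 51.7 ± 2.75% and Adk-201 20.1 ± 8.26%. By reads not divided by length, Adk-202 took 2.60 ± 0.583%. Adk-202 begins in the upstream first exon, as the long form does. So do Adk-210, Adk-205, Adk-203 and Adk-206, with 6.23%, 2.26%, 0.986% and 0.794% of the TPM of the gene. The shares by start codon leave these transcripts out, so they do not measure the use of each promoter. The window before the short form held 24 CpG and 75.2% G and C, and the window before the long form held 15 CpG and 58.8%, against medians of 6 CpG and 52.4% over 32851 RefSeq windows of the same length.

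**Figure D2:**
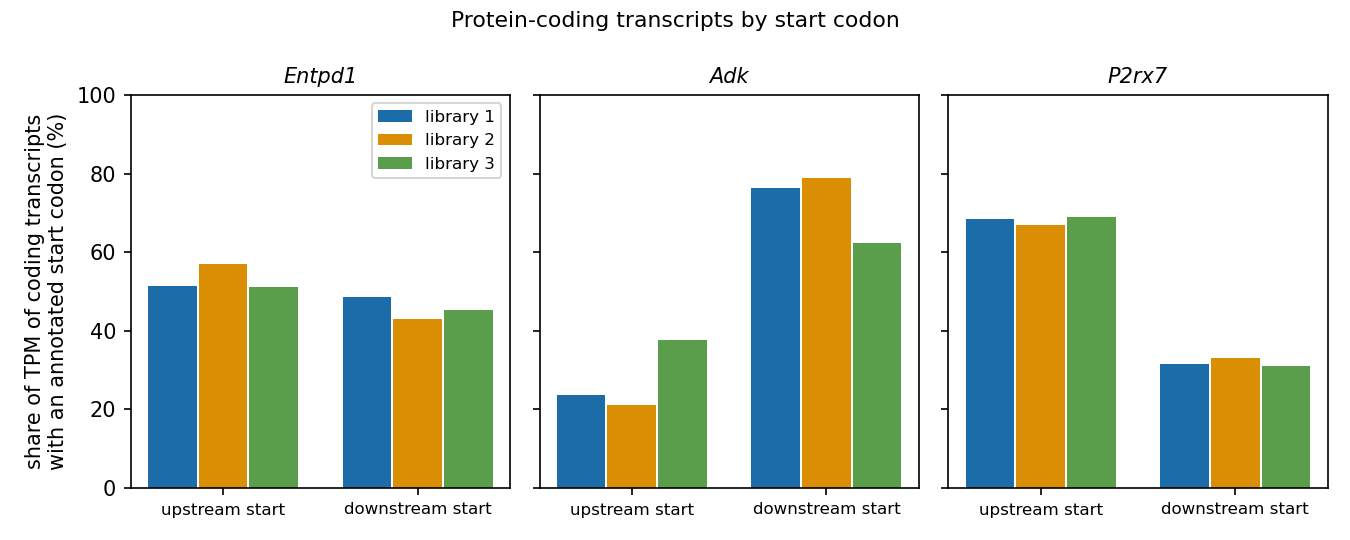
Share in percent of the TPM of protein-coding transcripts with an annotated start codon that falls on the upstream and the downstream start codon of Entpd1, Adk and P2rx7, with 1 bar per library. The starts of Entpd1 were used about evenly, the downstream start of Adk took 62.4% to 78.9%, and the downstream start of P2rx7 took 31.0% to 33.1%.

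Both ATP-gated channels were expressed, P2rx7 at a level among the highest of the 10 genes. P2rx7 encodes a channel that high ATP opens and that can lead T cells to shed surface proteins and die (ENSMUSG00000029468.17, chr5:122643911-122691432, plus strand). It stood at 108.5, 113.8 and 76.2 TPM, a mean of 99.5 ± 20.4 TPM, and 91.6% of protein-coding genes had a lower mean. Library 3 was the lowest. P2rx4, which encodes a channel of higher ATP sensitivity and lies 16111 bp downstream on the same strand (ENSMUSG00000029470.15, chr5:122707544-122729738), stood at 34.3, 33.3 and 23.7 TPM, a mean of 30.4 ± 5.89 TPM. It too was lowest in library 3. The neighbours kept a steady ratio, with P2rx7 above P2rx4 by a log2 ratio of 1.63, 1.74 and 1.65 in libraries 1, 2 and 3, or 1.67 ± 0.06. Among receptors of the end product and the starting signal, Adora2a was below P2rx7 in every library by a mean log2 ratio of -1.76 ± 0.35. Adora2a and P2rx4 had means of 30.1 and 30.4 TPM, a step that did not exceed the spread.

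The P2rx7 reads were assigned to full-length coding transcripts with alternative first exons. In the mouse, a form of the channel with another first exon, the k form, is known from T cells and is the one most readily opened by NAD through ADP-ribosylation. The files name transcripts by GENCODE numbers and do not pair them with that nomenclature. The coding part of each first exon (GENCODE M21, plus strand, start codon in capitals) and the 250 bases before each RefSeq start (GRCm38.p6, CpG in capitals) are shown, since these exons decide how the first residues of the channel read.
P2rx7-203, chr5:122644074-122644198: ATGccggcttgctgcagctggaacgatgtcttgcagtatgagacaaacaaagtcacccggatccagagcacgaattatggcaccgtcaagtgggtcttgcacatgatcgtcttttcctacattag
P2rx7-208, chr5:122650424-122650539: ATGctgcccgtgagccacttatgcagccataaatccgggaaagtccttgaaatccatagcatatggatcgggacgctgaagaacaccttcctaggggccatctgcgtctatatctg
At the upstream start, chr5:122643677-122643926: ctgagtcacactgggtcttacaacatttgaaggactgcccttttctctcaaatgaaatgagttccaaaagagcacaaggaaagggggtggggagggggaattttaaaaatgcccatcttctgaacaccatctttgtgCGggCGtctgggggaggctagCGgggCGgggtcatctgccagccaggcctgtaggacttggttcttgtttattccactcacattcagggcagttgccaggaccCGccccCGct
At the downstream start, chr5:122650133-122650382: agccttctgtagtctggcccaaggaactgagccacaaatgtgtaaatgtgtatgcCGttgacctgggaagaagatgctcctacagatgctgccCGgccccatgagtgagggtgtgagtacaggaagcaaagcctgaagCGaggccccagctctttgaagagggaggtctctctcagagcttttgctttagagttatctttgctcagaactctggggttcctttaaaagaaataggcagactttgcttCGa
P2rx7-203 codes for 595 residues and P2rx7-208 for 592, and from the second exon on they share their internal exons. P2rx7-203 stood at 32.5, 39.9 and 24.1 TPM in libraries 1, 2 and 3, and P2rx7-208 at 26.0, 28.5 and 18.1 TPM. Both were lowest in library 3, as the gene was. The downstream first exon of P2rx7-208 took 31.5%, 33.1% and 31.0% of the coding TPM, or 31.9 ± 1.08%, and the upstream one 68.1 ± 1.08%. The upstream share also counts the shorter P2rx7-202, P2rx7-204 and P2rx7-201, which code for 153, 431 and 442 residues. Their means were 13.5, 5.06 and 0.77 TPM, beside 32.1 TPM for P2rx7-203 and 24.2 TPM for P2rx7-208. The division by first exon was steadier across libraries than that of Adk, whose share had an SD of 8.87 percentage points. The deposited intervals for P2rx7-208 were 20.7 to 27.2, 22.5 to 29.4 and 14.3 to 19.0 TPM, and none came near 0. The last 16 bases of the upstream window lie inside the first exon of P2rx7-203 as GENCODE draws it. The windows held 6 and 4 CpG, at or below the median of all windows.

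Other P2rx7 transcripts were shorter. P2rx7-202, which stops early and codes for 153 residues, took 13.9 ± 2.49% of the gene. P2rx7-205, annotated as a retained intron, took 22.4 ± 0.159%, but its only exon lies wholly inside the last exon of P2rx7-203, so no base is particular to it. Of the gene's TPM P2rx7-203 took 32.2 ± 2.64% and P2rx7-208 24.2 ± 0.703%. By reads not divided by length, P2rx7-203 took 58.1 ± 3.33%, P2rx7-205 17.0 ± 0.486%, P2rx7-208 16.1 ± 0.034% and P2rx7-202 3.41 ± 0.679%. The shares by first exon given above are of TPM and depend on the division by length. P2rx4 was less often read as a coding transcript, since protein-coding transcripts took 53.5 ± 3.78% of its TPM. Of P2rx4, the coding P2rx4-202 took 41.4 ± 3.31%, the retained-intron transcript P2rx4-208, which starts in the first exon, 19.7 ± 1.77%, and the noncoding P2rx4-205 11.5 ± 2.44%. Reads not divided by length gave P2rx4-202 41.7 ± 3.18%, P2rx4-208 41.4 ± 1.95% and P2rx4-205 2.69 ± 0.599%.

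**Figure D3:**
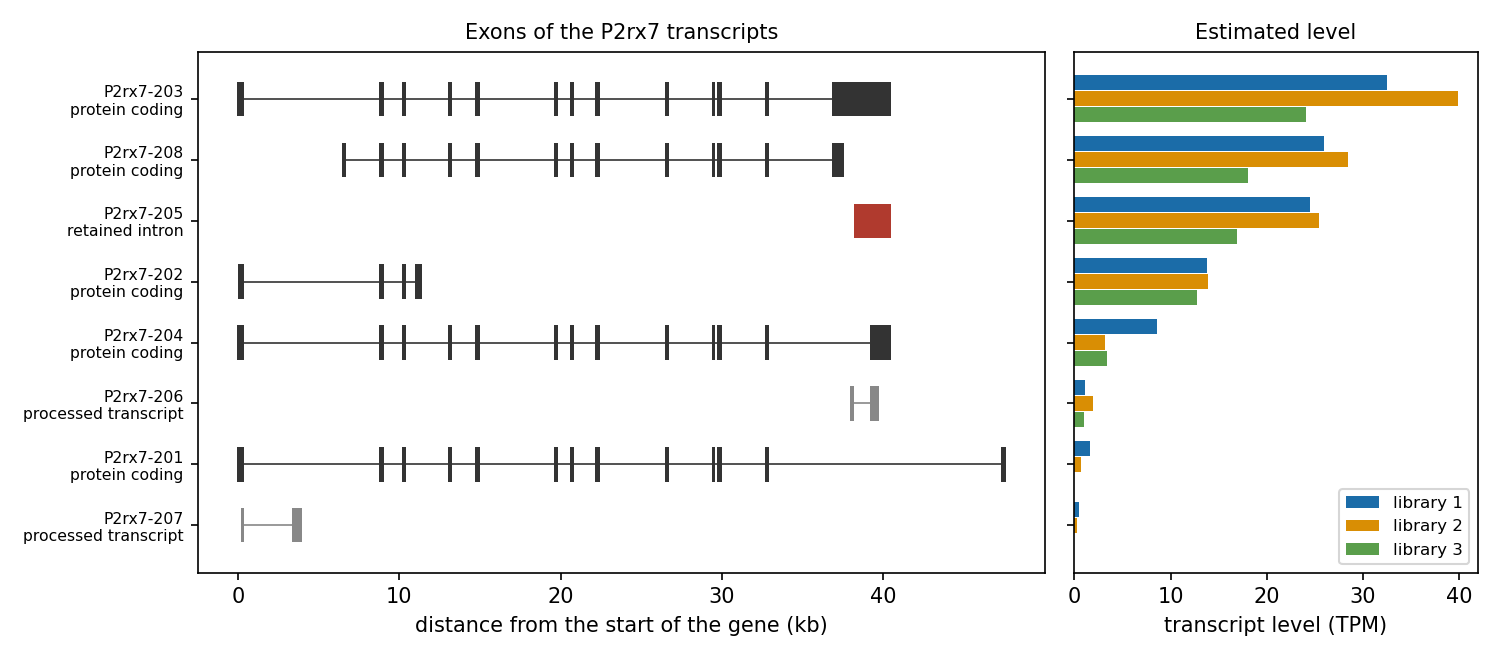
Exons of the 8 annotated P2rx7 transcripts by distance from the start of the gene in kb, and the estimated level of each transcript in TPM in the 3 libraries. The coding transcripts P2rx7-203 and P2rx7-208 have different first exons and carry 32.2% and 24.2% of the level, and P2rx7-205 lies inside the last exon of P2rx7-203.

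Art2b encodes the surface ADP-ribosyltransferase of mouse T cells that modifies P2RX7 (ENSMUSG00000030651.5, chr7:101576970-101585600, minus strand). It stood at 16.6, 21.7 and 34.1 TPM, a mean of 24.1 ± 8.98 TPM. Library 3 was the highest, as for Adk, and library 1 the lowest. Art2b was below P2rx7 in every library, by a log2 ratio of -2.64, -2.34 and -1.14, with a mean of -2.04 ± 0.79. This ratio changed most in library 3, where Art2b was high and P2rx7 low, and without library 2 its mean of -1.89 no longer exceeded 2 SD. Art2b-202 and Art2b-201, which share a start codon, took 58.1 ± 4.04% and 41.9 ± 4.04%.

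Art2b has a near copy, Art2a-ps, annotated as a polymorphic pseudogene next to it (chr7:101552453-101560865, minus strand). Art2b-201 shared 758 of 862 aligned bases with it, or 87.9%. The authors' assignment of reads between them may therefore be uncertain, but reads that match both were not counted here. Art2a-ps stood at 14.9, 4.91 and 5.95 TPM, high in library 1 where Art2b was low. The levels of the pair added up to 31.5, 26.6 and 40.0 TPM, and the sum remained highest in library 3, but library 2 and not library 1 was then the lowest.

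Between the libraries most of the 10 genes differed by more than counting error. A chi-square test of the estimated counts against normalised library sizes, with Benjamini-Hochberg adjustment over the 17190 genes that averaged at least 10 reads, called 79.8% of all genes tested and 8 of the 9 tested here. Adora2b had too few reads to be tested. A count near that background says nothing particular to these genes. Ada was the one tested gene that did not pass (adjusted p = 0.144 by the chi-square test), with a highest over lowest library of 1.15-fold in normalised reads. The adjusted chi-square p of the others lay between 3.86e-108 for Adk and 9.51e-09 for P2rx4.

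The differences were mostly small in fold. The highest library exceeded the lowest by 2.27-fold for Adora2a, 2.11-fold for Art2b, 1.58-fold for Adk and 1.53-fold for Entpd1. It did so by 1.48-fold for P2rx7, 1.45-fold for Nt5e, 1.28-fold for P2rx4 and 1.25-fold for Slc29a1. So 4 of 9 genes passed 1.5-fold, against 32.1% of the 11109 genes that averaged at least 100 reads. The median fold was 1.48 for the 9 genes and 1.34 for those 11109.

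Library 3 was the lowest for 5 of the 9 genes, namely Entpd1, Nt5e, Adora2a, P2rx7 and P2rx4, against 47.3% of the 11109 genes. It was the highest for Adk and Art2b, against 29.4%. Library 1 was the lowest for 3 genes and the highest for 2, against 29.3% and 34.3% of the 11109 genes. Library 2 was the lowest for 1 gene and the highest for 5, against 23.4% and 36.2%. Against the mean of the other libraries on a log2 scale, library 3 differed by -1.14 for Adora2a, -0.60 for Entpd1, -0.50 for P2rx7, -0.34 for Nt5e and -0.34 for P2rx4. It differed by 0.83 for Art2b and 0.64 for Adk. Longer transcripts were lower in library 3 across 17179 genes (Spearman rho = -0.27 with transcript length, across genes, which are not independent replicates). With a trend in length and G and C content removed, the differences were -0.83 for Adora2a, -0.55 for Entpd1, -0.28 for P2rx7, -0.23 for Nt5e, -0.25 for P2rx4, 0.88 for Art2b and 0.58 for Adk. All kept their direction. B cell markers and CD8 and NK cell markers also had their highest sums in library 3 (67.7 and 35.9 TPM), and Treg markers their lowest (1943 TPM), and the part of these cells in the differences was not tested. Without library 3, 4 of 9 genes passed (Nt5e, Slc29a1, P2rx7 and Art2b), and Entpd1, Adora2a, Adk and P2rx4 did not (adjusted chi-square p = 0.800, 0.334, 0.356 and 0.706). Over all genes 54.3% of 16415 passed without library 3, and the share of the 9 genes is read against that.

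**Figure D4:**
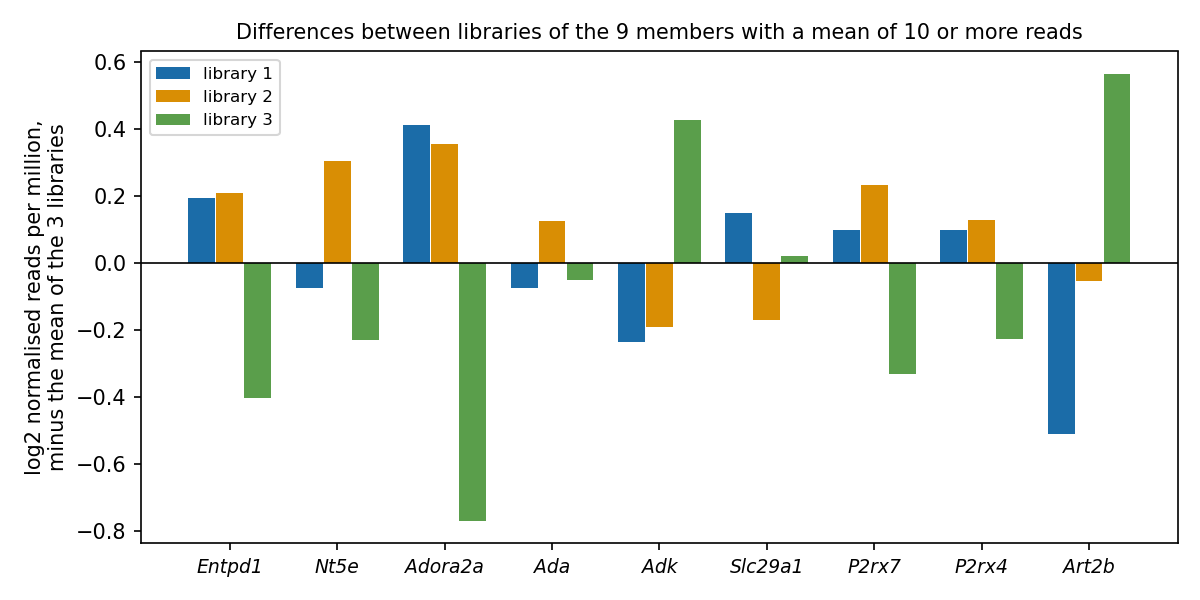
Log2 normalised read level of each gene in each library minus the mean of the 3 libraries, for the 9 genes that averaged at least 10 reads. Library 3 is the lowest for Entpd1, Nt5e, Adora2a, P2rx7 and P2rx4 and the highest for Adk and Art2b, and Ada and Slc29a1 vary least.

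The rest of the pathway was measured through 82 listed genes, of which 81 matched a symbol. Of these, 52 were detected, against 48.1% of 22028 protein-coding genes. The median of the 81 matched genes was 6.03 TPM, against 34.9 TPM for the 10 genes. Both sets were chosen with earlier results of these data known, so the medians are a description only. Of the 68 tested, 61 differed between libraries by the chi-square test, a share that again must be read against the background of 79.8%. The levels below are means of 3 libraries, and each count of detected genes below is read against the 48.1%.

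Other enzymes that cut extracellular or luminal nucleotides were detected in 8 of 13 cases, led by Entpd5 (39.8 ± 10.3 TPM), Entpd6 (37.5 ± 3.74 TPM) and Entpd4 (36.0 ± 4.65 TPM). Entpd4 and Entpd5 are known as enzymes of the secretory pathway and not of the cell surface. None of 5 other P2X channel genes was detected in all libraries, the highest being P2rx1 at 0.77 ± 0.19 TPM, so that P2rx7 and P2rx4 made up nearly all P2X transcript. The P2Y receptors, G protein-coupled receptors of nucleotides, were detected in 5 of 9 cases. P2ry10, a receptor of lysophospholipids despite its name, was the highest at 43.0 ± 6.10 TPM, followed by P2ry10b (5.07 ± 1.51 TPM) and P2ry14 (4.87 ± 1.23 TPM), the receptor of UDP-glucose.

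Among 6 other nucleoside transporters 4 were detected. Slc28a2, the concentrative transporter of purine nucleosides, stood at 89.9 ± 7.37 TPM, beside Slc29a1 at 84.4 ± 8.69 TPM. Slc29a3 and Slc29a4 followed at 13.01 ± 2.07 TPM and 3.49 ± 1.79 TPM. Of purine salvage and nucleotide turnover genes, 14 of 16 were detected, led by the cytosolic nucleotidase Nt5c (278.8 ± 5.40 TPM), Aprt (233.7 ± 12.3 TPM), which salvages adenine, and Dpp4 (187.3 ± 32.6 TPM). Dpp4 encodes CD26, which in humans anchors adenosine deaminase on the T cell surface.

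Routes of ATP release were detected for 4 of 7 genes, with the channel gene Panx1 at 139.9 ± 17.1 TPM, Lrrc8c, a subunit of volume-regulated channels, at 85.7 ± 7.53 TPM, and the vesicular nucleotide transporter Slc17a9 at 38.5 ± 9.16 TPM. Of NAD ectoenzymes and ADP-ribosylation genes, 3 of 7 matched genes were detected. Adprh, which removes ADP-ribose from arginine, stood at 65.4 ± 7.23 TPM, Cd38, which consumes NAD, at 12.2 ± 4.49 TPM, and Art4 at 2.45 ± 0.957 TPM. The other matched ADP-ribosyltransferase genes of the list, Art1, Art3 and Art5, lay between 0.22 and 1.22 TPM, against 24.1 TPM for Art2b. Art2a-ps, not matched to the list, had a mean of 8.58 TPM. Signalling genes downstream of the adenosine receptors were detected in 14 of 16 cases, led by Gnas, the stimulatory G protein subunit, at 603.9 ± 72.7 TPM, and the protein kinase A subunits Prkar1a at 370.6 ± 40.7 TPM and Prkacb at 121.0 ± 13.4 TPM.

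**Figure D5:**
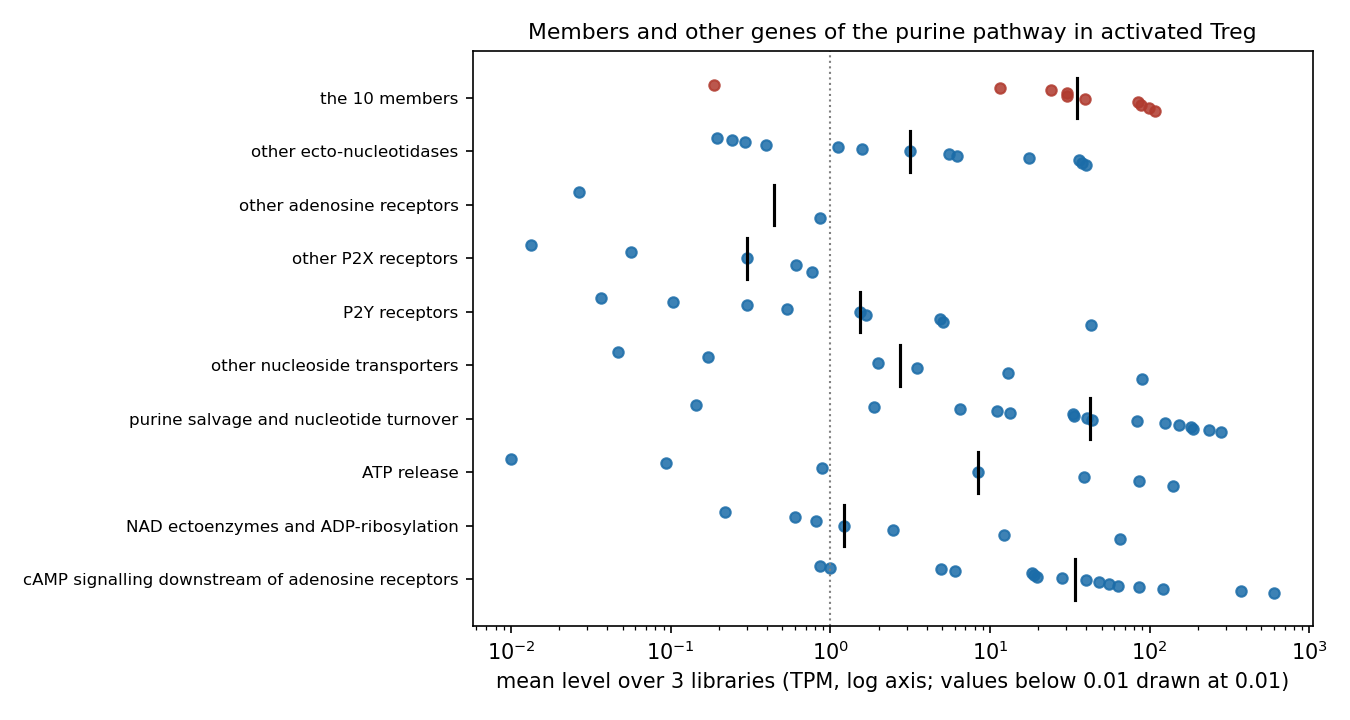
Mean level over 3 libraries in TPM on a log axis for the 10 genes and for 9 lists of other pathway genes, with 1 point per gene, a bar at each median and a dotted line at 1 TPM. The 10 genes have a median of 34.9 TPM, and all points of the other adenosine and P2X receptors lie below 1 TPM.

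The 250-base windows before RefSeq starts were found for 9 of the 10 genes, in 19 windows. Some overlap first exons as GENCODE draws them. The Nt5e window lies inside such an exon with all 250 bases, and windows of Slc29a1 overlap by 80, 72 and 15 bases. Each window was searched on both strands for 6 short motifs, none of which contains another. The TATA box, spelled TATAAA, occurs in 12.4% of all 32851 windows. The cyclic AMP response element, spelled TGACGTCA, occurs in 1.55%. The AP-1 motif TGANTCA occurs in 6.75% and the RUNX motif TGTGGT in 14.05%. The ETS motif CCGGAA occurs in 12.03% and the forkhead motif TGTTTAC in 3.17%. Neither TATAAA nor TGACGTCA occurred in any window of the 9 genes. The window at the upstream P2rx7 start, printed above, held TGANTCA near its far end, and 1 of 8 windows of Slc29a1 held TGTGGT. The Art2b window, chr7:101581162-101581411, held TGANTCA and TGTGGT. It lies directly before Art2b-201 but inside the gene, since Art2b-202, the transcript with the larger share, begins further upstream at chr7:101585600. The window of Ada held CCGGAA 3 times. A match is a description of the letters and not a bound site.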

How the data were processed

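The 3 libraries formed 1 group, and n is the number of technical libraries. Per the deposited library notes, tables of genes and of transcripts were made from transcriptome alignments on mm10 with GENCODE M21; neither aligner nor quantifier is named in the sources used here. Expected counts, as deposited by the authors, are estimated reads per gene or transcript and are not normalised. TPM and FPKM, as deposited, were scaled by the authors for length and depth. The bounds of the TPM intervals, a signal column without a stated level, are the authors' own and belong to a second (posterior mean) estimate, so a TPM can lie outside them. Transcript shares were computed from TPM, and the percent column deposited by the authors was not used for them. A smaller deposited table of whole-number counts for 22457 genes, from genome alignments with GENCODE M4 per the library notes, with 8294501 to 8714761 reads per library, was an alternative.

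Spike-in and transfer RNA entries (26345 of 81881, with 0.166% to 0.229% of reads) were left out. Expected counts were rounded, scaled by TMM sizes (edgeR 4.0.16, R 4.3.3; factors 0.988, 0.977 and 1.04) and compared between libraries by a chi-square test with 2 degrees of freedom, with Benjamini-Hochberg adjustment at 0.05. A quasi-likelihood test had no contrast with 1 group. DESeq2 1.42.0 gave alternative size factors. Pair ratios used log2(TPM + 1). On counts simulated for 17165 genes with counting error only (Poisson), recovery was 64% of genes with a change of 1.2-fold, 72% for 1.5-fold, 70% for 2-fold and 100% for 4-fold. Of 16965 genes left unchanged, 12 were called. The simulation used the library sizes that the test assumes and no further spread. It therefore checks the code and does not give the rate of calls in real libraries. Python 3.11.15, scipy 1.17.1, pandas 2.3.3 and Biopython 1.88 were used. The members and lists were chosen with earlier results of these data known. Genes named are the 10 members, up to 3 highest of each list by mean TPM, and transcripts with a mean share of 10% or more. Other names were added after their values were seen. The list gene Art2a had no matching symbol and was counted as unmatched. GENCODE M21 has Art2a-ps instead, which is described beside Art2b. Promoter windows are from RefSeq, and that of Adora2a was not used here. The limit of 3 reads for a count of 0 covers counting error only. The deposited intervals are given per library and do not cover the spread between libraries or animals. What else they cover was not examined.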

Additional observations from a re-analysis of the deposited data

How the results depend on the processing

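Under DESeq2 size factors, total reads, a filter of 50 reads, posterior mean counts and the smaller gene table, 8 of 9 tested genes passed. The chi-square test called 79.7%, 80.1%, 87.1%, 79.1% and 64.9% of all tested genes there, in that order. The counts are read against those shares. With no filter 9 of 10 genes passed, Adora2b included (adjusted chi-square p = 0.0339), beside 47.8% of 37268 genes. Leaving out each library in turn gave 4 to 8, the 4 without library 3. Over all genes the test called 7802 of 12026 in the smaller table, against 13714 of 17190. It called 11385 of 17500 without library 1, 11769 of 17796 without library 2 and 8910 of 16415 without library 3 (65.1%, 66.1% and 54.3%). The Art2b to P2rx7 log2 ratio ranged from -2.49 to -1.74 with a library left out and did not exceed 2 SD without library 2 (-1.89). The other 7 pairs kept their direction and their side of 2 SD under each pseudocount, estimate and omission. Protein-coding transcripts alone lowered Entpd1 to 28.0, Adk to 80.0, P2rx7 to 75.6 and P2rx4 to 16.2 TPM. Detection stood at 9 genes with thresholds of 0.5 and 5 TPM. Reads not divided by length raised the share of Nt5e-201 to 95.3%, Adk-207 to 59.3%, P2rx7-203 to 58.1% and Art2b-202 to 82.3%, and posterior means lowered Entpd1-204 to 33.8% and Slc29a1-202 to 55.7%. Adding Art2a-ps to Art2b, an alternative chosen after seeing the data, left it past the test (adjusted chi-square p = 2.43e-31). No paired analysis was possible because there was 1 group. An exact sign-flip test over 3 libraries cannot go below p = 0.25, so pair ratios had no test. Transcript levels are estimates that share reads, and Adora2b was at the limit of depth.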

Other observations

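Of the 68 tested pathway genes outside the 10, 23 were highest in library 1, beside 5637 of all 17190 tested genes. Library 1 also had the highest sums of erythroid (8528 TPM, against 686 and 503 TPM), monocyte and macrophage (99.7, against 44.0 and 64.4 TPM), dendritic (6.70, against 3.08 and 3.17 TPM) and neutrophil markers (9.81, against 0.69 and 1.04 TPM), and their part was not tested. The genes below were named after their values were seen. Cd38, which consumes NAD, stood at 17.4, 9.07 and 10.2 TPM in libraries 1, 2 and 3. Prkar2b, a regulatory subunit of protein kinase A, stood at 9.64, 2.27 and 2.76 TPM, and the ADP receptor gene P2ry1 at 0.74, 0.16 and 0 TPM. Each passed the chi-square test between libraries (adjusted p = 1.15e-42, 1.40e-67 and 3.44e-14). Others differed in another way: Ampd1, which deaminates AMP, stood at 2.64, 6.57 and 10.1 TPM, lowest in library 1 (adjusted chi-square p = 6.37e-29), and Adcy7, an adenylyl cyclase, at 94.4, 106.4 and 56.3 TPM, lowest in library 3 as Adora2a was (adjusted chi-square p = 3.31e-280).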
